A study of Homo sapiens with 8 samples.

Results

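The response of parental HEL92.1.7 cells to OTX015 was followed across all genes of a messenger RNA profile. HEL92.1.7 is an established human erythroleukaemia line, described by the submitters as secondary acute myeloid leukaemia blasts, and OTX015, also called birabresib, is a drug that occupies the bromodomains of BET proteins. The comparison set 2 libraries of cells given 1000 nM OTX015 for 8 hours against 2 libraries of untreated cells, all grown in the same serum-containing medium. The other 4 of the 8 libraries in the series came from HEL-OTX P/R, a persister-resistant derivative of the same line, untreated or treated alike; they entered here only to estimate the spread and to test whether the response differed between the lines. The groups held independently treated cultures of 1 cell line. The labels call the controls untreated and name no solvent. Of 19718 coding genes in the deposited table, 11255 reached 1 FPKM (a read density that corrects for transcript length and library size) in at least 2 of the 8 libraries and form the set described.

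BET proteins carry paired bromodomains that dock on acetylated lysines of histones and of some transcription factors. They help to bring the kinase P-TEFb to promoters and enhancers, where it releases RNA polymerase II from its pause near the start of genes. In blood cancers, genes that sit beside large acetylated enhancers, often lineage factors, growth factors and surface proteins, are known to depend on BET proteins most.

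The labelled cell type was seen in the markers. All 15 erythroid and megakaryocytic markers of the line reached 1 FPKM in the parental libraries, among them globins, GATA1, KLF1 and ITGA2B. Markers of other cell types were partly present: 1 of 10 of monocytes and granulocytes reached it, 3 of 8 of T and NK cells, 2 of 5 of B cells, 4 of 5 of mast cells and basophils, 4 of 5 of endothelium, 2 of 5 of epithelium and 0 of 5 of fibroblasts. S100A8, ELANE, CD3D, CD3G and MS4A1 were listed at 0 in all 4 parental libraries, whereas in untreated cells CD2 was at 9.14 and 8.36 FPKM, CD4 at 11.0 and 10.6 FPKM, and CD79A at 5.46 and 5.69 FPKM. The mast cell and basophil sum, mostly HDC, was at 449.9 and 406 FPKM untreated and 429 and 447 FPKM treated, and the endothelial sum, mostly TIE1, at 84.0 and 83.8 against 88.4 and 90.8 FPKM. The T and NK sum was at 21.5 and 20.2 against 13.3 and 12.1 FPKM, and the B cell sum at 10.7 and 10.2 against 5.36 and 5.68 FPKM; the part of these markers in the results was not tested. The erythroid and megakaryocytic markers summed to 23311 and 23248 FPKM in untreated and 21120 and 20214 FPKM in treated cells, and the monocyte and granulocyte markers to 14.4 and 13.8 against 12.8 and 11.1 FPKM. In bulk RNA, fewer cells of a kind and less RNA per cell cannot be told apart. The values were quantile normalized by the authors, so every library totals 678133 FPKM, the sequencing depth is unknown and a global rise or fall in RNA would not show. Across genes, Pearson's r was 0.9957 to 0.9962 within a parental group and 0.9706 to 0.9727 between treated and untreated libraries; genes are not independent replicates, and the figures are descriptions.

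At 8 hours, 5667 of 11255 genes (50.4%) passed the test between treated and untreated parental cells, at an adjusted p under 0.05 in limma, and 5588 did not. Of these, 2890 (25.7%) were higher and 2777 (24.7%) were lower under OTX015. Most changes were small. Among the genes that passed, 60.0% moved by less than 0.5 on the log2(FPKM + 1) scale, on which every log2 change below is given, and the median rise and fall were 0.42 and -0.45. By contrast, 186 genes (1.65%) rose and 300 (2.67%) fell by at least 1 on that scale. Both treated libraries lay above both untreated ones in 39.2% of genes and below them in 36.4%, whether or not the gene passed. The share that passed went from 37.4% of genes averaging below 1 FPKM to 58.6% of those at 100 FPKM or more. Lists of genes are read against these shares: for each, the tested members that rose, fell or did not pass are counted, with the median log2 change, which was 0.02 over all genes tested. Some genes stand in more than 1 list. Of the 11255 genes, 10709 would also have entered on the untreated libraries alone and on the treated ones alone, and of these 25.6% rose and 24.5% fell.

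**Figure D1:**
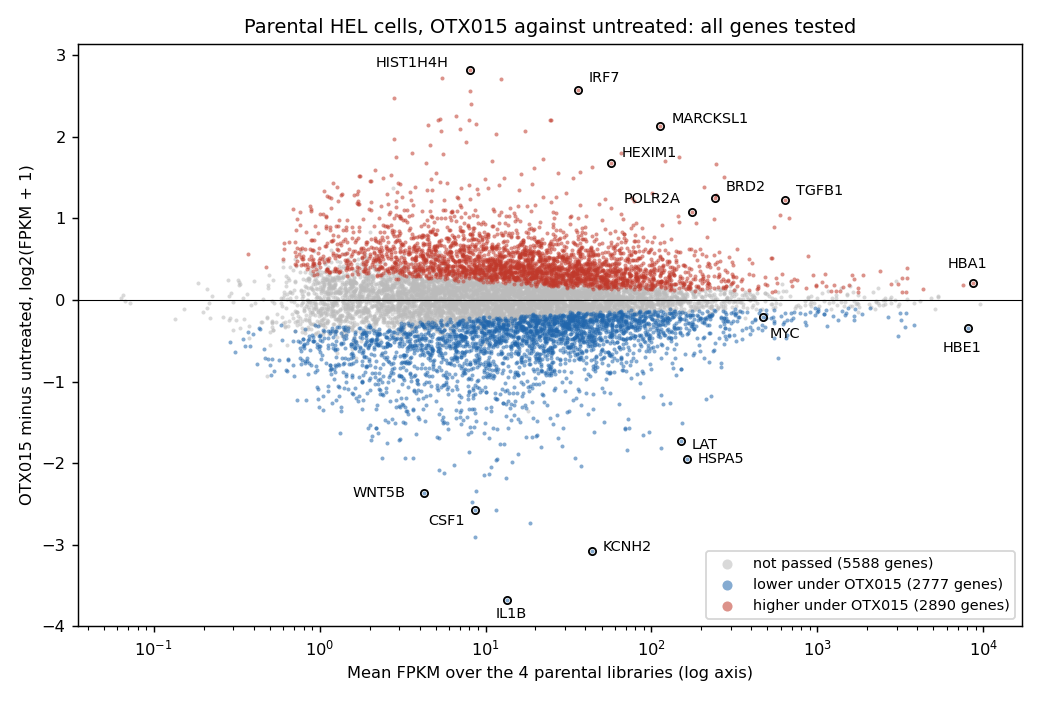
Each point is 1 of the 11255 genes tested. The x axis is the mean FPKM of the 4 parental libraries on a log axis, and the y axis is the OTX015 minus untreated difference in log2(FPKM + 1), with genes that rose in red, those that fell in blue and the 5588 that did not pass in grey. The changes reach from -3.68 for IL1B to 2.82 for HIST1H4H, while HBA1 and HBE1, among the most abundant transcripts, moved by 0.21 and -0.35.

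The drug's own targets and the genes used to follow BET inhibitors in blood cells are described first. HEXIM1, which holds P-TEFb inactive together with 7SK RNA, was at 26.7 and 26.5 FPKM in the untreated libraries and 84.6 and 91.1 FPKM in the treated ones. SERPINI1, which encodes neuroserpin, was at 2.66 and 2.43 FPKM untreated and 11.7 and 13.6 FPKM treated. For both genes the treated libraries lay above the untreated ones and the replicates lay close together, and the log2 changes were 1.69 ± 0.054 (SE, adjusted p = 1.54e-07) and 1.94 ± 0.11 (adjusted p = 2.13e-06). ZCCHC24, which entered only through its treated libraries, rose from 0.179 and 0.145 to 1.36 and 1.25 FPKM, and ZMYND8, which encodes a reader of histone marks, fell from 31.4 and 32.3 to 17.1 and 17.5 FPKM. The remaining markers of that list, CCR2 and CD180, stayed under 1 FPKM and were not tested. Among genes of the BET family, BRD2 rose from 153 and 132 to 322 and 356 FPKM, 2.38-fold by the means, and BRD3 from 8.24 and 9.77 to 11.9 and 15.6 FPKM. Treated and untreated libraries did not overlap in either gene, and BRDT, the germ cell member, was listed at 0 in all 4.

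Elsewhere in the elongation machinery the changes were mixed. Among 16 genes of P-TEFb, the 7SK particle and the super elongation complex, 6 rose, 2 fell and 8 did not pass, with a median log2 change of 0.13. AFF1, a scaffold of the super elongation complex, rose from 4.98 and 5.32 to 8.88 and 8.80 FPKM, and ELL2, an elongation factor, rose from 7.81 and 9.86 to 15.4 and 13.2 FPKM. LARP7, which stabilises 7SK RNA, fell from 13.7 and 13.8 to 9.24 and 9.32 FPKM. Of 26 pausing and elongation factors, 11 rose, 4 fell and 11 did not pass (median 0.13); without treated replicate 2 or untreated replicate 2, 7 and 6 rose, and without untreated replicate 2, 1 of the 2 falls in the former list was left. CDK7, the kinase of the general factor TFIIH, rose from 9.06 and 7.72 to 14.3 and 12.9 FPKM while its cyclin CCNH fell from 39.1 and 36.7 to 23.4 and 26.6 FPKM. NELFCD, a subunit of the negative elongation factor, fell (-0.48) and SUPT6H, a histone chaperone that travels with the polymerase, rose (0.52). POLR2A, the largest subunit of RNA polymerase II, was at 111 and 113 FPKM in untreated and 230.2 and 246 FPKM in treated cells, so both treated libraries lay above the untreated ones, 2.12-fold by the means (log2 change 1.08 ± 0.057, adjusted p = 1.53e-06). Among all 21 subunits of RNA polymerases II and III, 2 rose, 4 fell and 15 did not pass; 4 rose in a fit of the parental groups alone, and without treated replicate 2 or untreated replicate 1, 2 fell. Of 30 Mediator subunits, 5 rose (16.7%) and 4 fell (13.3%), and 2 of those falls were left without treated replicate 1, treated replicate 2 or untreated replicate 2.

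Histone genes held most of the top of the list of rises. Of the 20 largest rises among genes averaging at least 5 FPKM in one parental group without overlap of the libraries, 14 were histone genes. The table lists 89 histone genes, of which 70 were tested, and 62 of these rose, 1 fell and 7 did not pass. Of the 70, 23 entered the test only through treated libraries of either line, a choice that favours rises. The count is better taken over the 47 that reached 1 FPKM in untreated and treated libraries alike. Of these, 42 rose, against 25.6% of all genes chosen in that way. Outside the test, 8 histone genes were listed at 0 in all 4 parental libraries. Summed over all 89, histone transcripts were at 3006 and 3049 FPKM in untreated and 4791 and 5052 FPKM in treated cells.

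By family, all 6 linker histone H1 genes tested rose (median 1.74, and 5 of 5 among those expressed in untreated cells). H1FX was at 108 and 127 FPKM untreated and 356 and 394 FPKM treated, H1F0 at 143 and 139 FPKM untreated and 396 and 409 FPKM treated, and HIST1H1C at 29.3 and 27.5 FPKM untreated and 99.0 and 105 FPKM treated. In each of these abundant H1 genes the treated libraries lay far above the untreated ones. H2A counted 17 rises, 1 fall and 3 that did not pass among 21, and of the 16 expressed in untreated cells 14 rose. The exception was H2AFY, which encodes the variant macroH2A and fell by 0.24 on the log2 scale, from 463 and 445 to 380.4 and 388 FPKM. H2AFX, the variant phosphorylated at DNA breaks, rose from 432 and 463 to 856 and 947 FPKM. Of 16 H2B genes 15 rose (10 of 10 among those expressed in untreated cells), among them HIST2H2BE from 1.52 and 1.71 to 15.8 and 13.2 FPKM. In H3, 13 of 15 rose (7 of 9), and in H4, 11 of 12 (6 of 7). HIST1H4H was at 1.31 and 1.16 FPKM untreated and at 16.9 and 12.8 FPKM treated, a log2 change of 2.82 ± 0.15 (adjusted p = 1.87e-06). H3F3A and H3F3B, which encode the replacement variant H3.3 and have introns, were the most abundant H3 genes and rose less, from 695 and 695 to 810.3 and 834 FPKM and from 442 and 430.2 to 598 and 649 FPKM.

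HIST1H2AD and HIST1H3D were the genes that went from below 1 FPKM in both untreated libraries to at least 5 FPKM in both treated ones. HIST1H2AD was at 0.806 and 0.613 FPKM untreated and 9.74 and 10.8 FPKM treated, and HIST1H3D at 0.146 and 0.178 FPKM untreated and 5.45 and 5.47 FPKM treated. RefSeq gives them the same start site, so their reads cannot be cleanly told apart. Reads of the near-identical pairs HIST2H4A with HIST2H4B, and HIST2H2AA3 with HIST2H2AA4, may have been divided between copies, and their single values are uncertain. HIST2H3A and HIST2H3C were listed at the same untreated values, 0.365 and 0.460 FPKM. The counts of histone rises, also among the largest, take the genes of all these pairs separately. The main transcripts of replication-dependent histone genes end in a stem loop and carry no poly(A) tail. The sources used here do not say whether poly(A) RNA was selected, so whether these values follow total histone transcript or its polyadenylated part cannot be told apart.

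**Figure D2:**
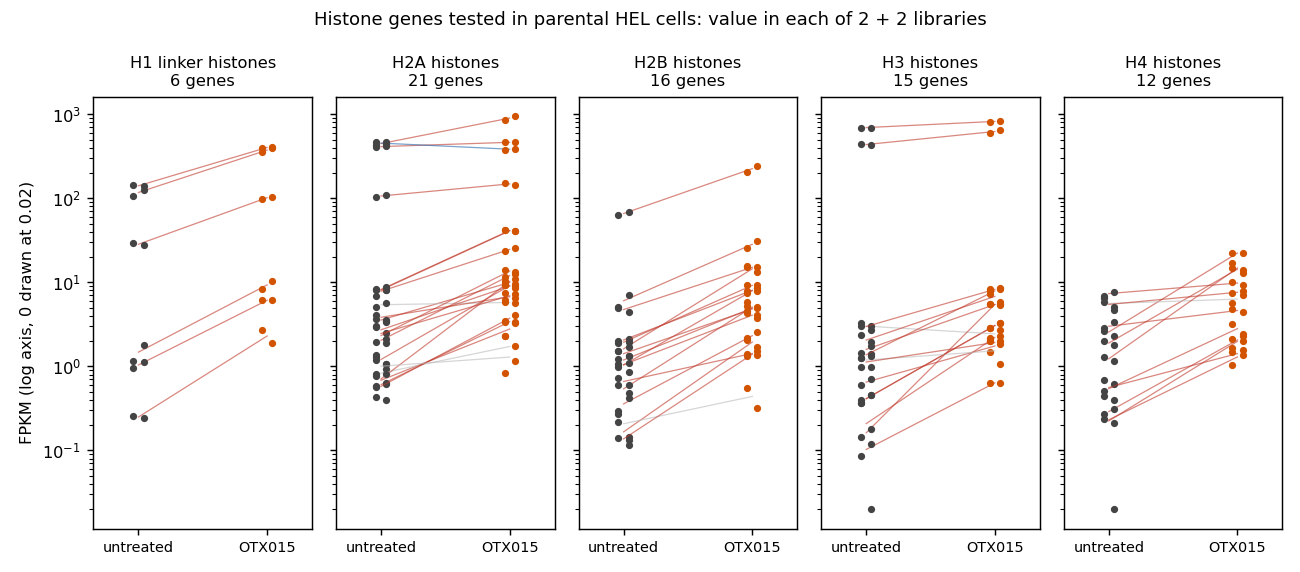
FPKM on a log axis for the 70 histone genes tested, in 5 families; dark points are the 2 untreated and orange points the 2 treated parental libraries, and lines join the means, in red for genes that rose, blue for the 1 that fell (H2AFY) and grey for the 7 that did not pass. Values of 0 are drawn at 0.02. The rises span abundant linker histones such as H1F0, at 396 and 409 FPKM when treated, and genes that stayed under 10 FPKM.

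Promoters of 3 of these genes are shown, 2 of H2B and 1 of the H4 gene with the largest rise, because the families share promoter letters to different degrees. Each is the 250 bases before the RefSeq start site (GRCh38.p14), written in the direction of the gene. Capitals mark, on either strand, ATTTGCAT (the octamer bound by POU factors), CCAAT and TATAAA.
HIST2H2BE (chr1:149886683-149886932, minus strand): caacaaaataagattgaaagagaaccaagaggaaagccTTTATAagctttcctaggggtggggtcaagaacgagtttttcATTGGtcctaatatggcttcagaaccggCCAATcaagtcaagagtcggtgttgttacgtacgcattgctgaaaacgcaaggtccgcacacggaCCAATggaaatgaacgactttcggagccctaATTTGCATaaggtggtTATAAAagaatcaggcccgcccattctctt
HIST1H2BJ (chr6:27132796-27133045, minus strand): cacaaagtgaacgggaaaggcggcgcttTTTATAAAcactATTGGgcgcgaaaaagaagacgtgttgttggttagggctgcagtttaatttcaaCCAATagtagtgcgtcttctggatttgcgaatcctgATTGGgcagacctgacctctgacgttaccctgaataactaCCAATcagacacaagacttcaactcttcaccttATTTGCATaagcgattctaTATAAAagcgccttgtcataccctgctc
HIST1H4H (chr6:26285535-26285784, minus strand): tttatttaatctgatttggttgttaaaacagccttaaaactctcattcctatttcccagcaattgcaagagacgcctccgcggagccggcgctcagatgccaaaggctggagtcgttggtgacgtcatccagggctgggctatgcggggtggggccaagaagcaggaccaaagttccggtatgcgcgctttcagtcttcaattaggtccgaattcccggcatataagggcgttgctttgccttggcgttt
The octamer was in 13 of 16 H2B promoters, 10 of 18 H2A, 2 of 10 H3, 0 of 10 H4 and 0 of 5 H1 promoters. It was in 1.63% of 35116 promoters in the RefSeq table and in 1.43% of those of tested genes. These windows are not all separate. HIST1H2AD and HIST1H3D have the same window, and HIST1H2AM and HIST1H2BO, on opposite strands, share an octamer. CCAAT was in all 16 H2B and 2 of 10 H4 promoters, against 32.0% of all and 35.9% of those of tested genes. TATAAA was in 11 of 16 H2B and 5 of 10 H4 promoters, against 10.7% of all and 5.24% of those of tested genes. HIST1H2BJ, with an octamer, rose from 4.93 and 7.15 to 25.6 and 31.1 FPKM, and HIST1H4H held none of the motifs searched. Of 25 tested histone genes with an octamer, 23 rose, with a median log2 change of 1.56. The H4 family, with no octamer in its promoters, had a median of 1.09 over 12 tested genes. Both medians include genes that entered only through treated libraries, and the part of the octamer in the rises was not tested. Outside the histones, 106 tested genes held an octamer, and 29 of them rose (27.4%) and 32 fell (30.2%), near the background. A match is a description of letters in this window, not of a bound site.

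The other large rises came from genes of several kinds. IRF7, which encodes a transcription factor of interferon genes, was at 9.68 and 9.60 FPKM in untreated and 59.7 and 65.8 FPKM in treated cells, a log2 change of 2.58 ± 0.074 (adjusted p = 6.37e-08). MARCKSL1, an actin-binding membrane protein gene, was at 41.4 and 41.6 FPKM and 180.0 and 189.7 FPKM (2.13 ± 0.046, adjusted p = 3.4e-08). PLCD3, a phospholipase C gene, was at 1.38 and 1.88 FPKM untreated and 12.1 and 11.1 FPKM treated. In all 3 the treated replicates were far above the untreated ones and close to each other. DHRS2, a short-chain dehydrogenase gene known to rise with some inhibitors of histone deacetylases, rose 7.64-fold, from 1.22 and 1.25 to 9.41 and 9.44 FPKM. TUBB3, the neuronal β-tubulin, rose from 3.86 and 4.00 to 19.4 and 19.0 FPKM, and SAT1, which acetylates polyamines for export, from 9.93 and 9.56 to 34.9 and 34.2 FPKM. DGAT1, which makes triglycerides, rose from 57.0 and 55 to 171 and 199 FPKM. CTNNBIP1, an inhibitor of β-catenin binding to TCF factors, and NDRG1, a stress-response gene, rose by 1.70 and 1.69 on the log2 scale. SRGAP2B stands apart from these: its untreated libraries were at 0.00122 and 8.61 FPKM and its treated ones at 16.7 and 9.79 FPKM, it has near-identical relatives, and its call (adjusted p = 0.0461) was lost without untreated replicate 1 (adjusted p = 0.17), treated replicate 1 (0.182) or treated replicate 2 (0.0781).

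The largest falls are given by gene. IL1B, the inflammatory cytokine interleukin 1β, was at 26.7 and 24.8 FPKM in untreated and 1.09 and 1.10 FPKM in treated cells, a log2 change of -3.68 ± 0.29 (adjusted p = 1.36e-05). KCNH2, a voltage-gated potassium channel of heart and of leukaemia cells, was at 80.2 and 78.4 FPKM untreated and 8.87 and 8.12 FPKM treated (-3.08 ± 0.14, adjusted p = 8.1e-07). APLNR, the receptor of the peptide apelin, was at 15.8 and 16.0 FPKM untreated and 1.30 and 1.21 FPKM treated (-2.91 ± 0.16, adjusted p = 1.62e-06). By the means, untreated cells held 23.6, 9.33 and 12.7 times as much, and the libraries of each group lay close together. Also among the 12 largest falls were GPR85, an orphan receptor (29.9 and 35.7 to 4.19 and 3.90 FPKM), CSF1, the growth factor of macrophages (15.9 and 15.1 to 1.61 and 1.92 FPKM), and LRFN4, a leucine-rich adhesion protein (-2.58). ITLN2, an intelectin, B3GNT7, a glycosyltransferase, and SLC6A19, a transporter of neutral amino acids, fell by 2.48, 2.34 and 2.14 on the log2 scale. ACKR1, the Duffy chemokine receptor of red cells, fell from 23.2 and 21.7 to 4.44 and 3.91 FPKM, and GRAP2, an adaptor of lymphocyte receptors, from 17.7 and 15.7 to 3.42 and 2.61 FPKM. Genes at 5 FPKM or more in both untreated libraries and below 1 FPKM in both treated ones were WNT5B (a WNT ligand, 8.09 and 7.57 to 0.514 and 0.921 FPKM), PRF1 (perforin, 7.21 and 5.57 to 0.948 and 0.888), MYO3B (a myosin, 5.81 and 5.77 to 0.773 and 0.765) and CD6 (a lymphocyte surface receptor, 5.16 and 5.10 to 0.838 and 0.880). In all 4 the treated libraries were below the level at which genes were tested.

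Ligands and receptors fell more often than genes at large. Of 23 cytokine and chemokine genes, 15 fell, 3 rose and 5 did not pass (median -0.45), and of the 20 that reached 1 FPKM in untreated and treated libraries alike, 14 fell and 2 rose. LTB, which encodes lymphotoxin β, fell from 5.18 and 5.02 to 1.24 and 1.71 FPKM, and CXCL3, a neutrophil chemokine, from 5.19 and 4.87 to 1.99 and 2.26 FPKM. TGFB1 went the other way and was by far the most abundant of the list, at 384 and 375 FPKM untreated and 818 and 967 FPKM treated (1.23 ± 0.084, adjusted p = 6.41e-06). Of 27 G protein-coupled receptors, 18 fell, 2 rose and 7 did not pass (median -0.73). ADGRG1, an adhesion receptor of stem cells and megakaryocytes, fell from 9.20 and 8.98 to 1.20 and 1.57 FPKM, LPAR5, a receptor of lysophosphatidic acid, from 11.6 and 12.3 to 4.51 and 5.04 FPKM, and TBXA2R, the thromboxane receptor, from 6.13 and 5.81 to 2.18 and 2.22 FPKM. In each, both treated libraries lay well below both untreated ones. Of the 23 receptors that reached 1 FPKM in untreated and treated libraries alike, 14 fell and 2 rose. Of 40 cytokine and growth factor receptors, 18 fell, 10 rose and 12 did not pass, with 6 and 5 rises left without treated replicate 2 or untreated replicate 1. CSF2RB, the shared chain of the interleukin 3 and GM-CSF receptors, fell from 28.5 and 30.9 to 8.56 and 8.56 FPKM, and TNFRSF14 from 18.5 and 15.7 to 5.42 and 4.71 FPKM, whereas the interferon receptor genes IFNAR1 and IFNAR2 did not pass (log2 change -0.03 and 0.05). Among 38 ion channels, 13 fell, 7 rose and 18 did not pass. KCNN4, the calcium-activated potassium channel of red cells, fell from 49.0 and 49.98 to 21.0 and 20.7 FPKM.

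Downstream of the receptors the picture was less one-sided. JAK-STAT and feedback genes counted 10 rises, 8 falls and 10 that did not pass among 28, and 5 rises without treated replicate 2. PTPN6, the phosphatase SHP-1 that restrains cytokine receptors, fell from 107 and 102 to 37.3 and 31.7 FPKM, and PIM1, a kinase induced by STAT5, from 233 and 222 to 79.4 and 78.4 FPKM. JAK1 rose from 47.2 and 51.3 to 87.3 and 86.2 FPKM, and STAT3 did not pass (-0.03). In the AP-1 and immediate early list, 10 of 25 rose and 7 fell: FOSL1 and BATF, AP-1 subunits, fell (-1.67 and -1.51) and JUN rose from 3.03 and 2.95 to 6.02 and 6.39 FPKM. Genes of MAP kinase feedback fell in 7 of 18 cases, 4 without untreated replicate 1, and rose in 4. Among them ETV4, an ETS factor downstream of MAP kinases, fell from 18.6 and 18.2 to 7.06 and 7.08 FPKM. NF-kB subunits and feedback genes counted 5 rises (25%), 4 falls (20%) and 11 that did not pass among 20, beside 25.7% and 24.7% of all genes.

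**Figure D3:**
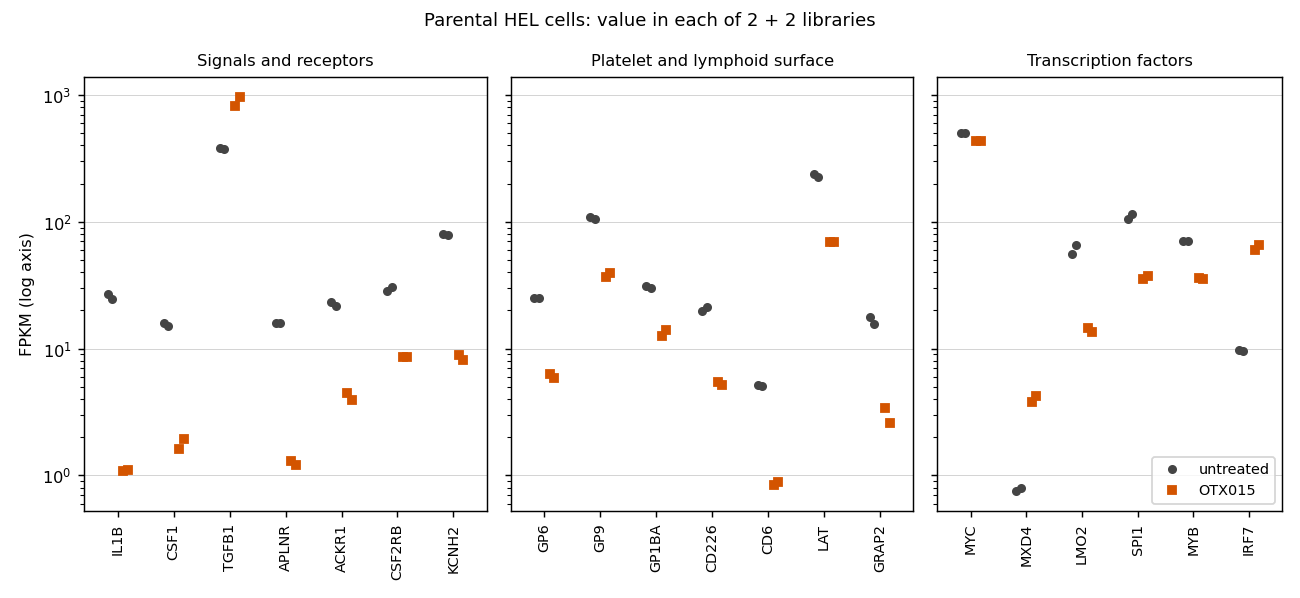
FPKM on a log axis for 20 genes in each parental library, with 2 untreated libraries as dark circles and 2 treated ones as orange squares. In every gene shown the groups do not overlap. TGFB1, MXD4 and IRF7 rose while the other 17 fell, MYC the least of them.

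Platelet genes were among the lists with most falls. Of 24 platelet surface receptors, 16 fell, 3 rose and 5 did not pass (median -0.56); 1 rise was left without untreated replicate 2, and of the 22 that reached 1 FPKM in untreated and treated libraries alike 15 fell and 3 rose. GP6, the collagen receptor, was at 25.3 and 25.2 FPKM untreated and 6.27 and 5.89 FPKM treated. Of the receptor for von Willebrand factor, GP9 was at 109 and 105 FPKM untreated and 37 and 39.4 FPKM treated, and GP1BA at 31.3 and 29.9 FPKM untreated and 12.6 and 13.9 FPKM treated. CD226, an adhesion receptor shared with lymphocytes, was at 19.7 and 21.3 FPKM untreated and 5.45 and 5.16 FPKM treated. In all 4 both treated libraries lay far below both untreated ones. ITGA2B, the most abundant of the list and the integrin chain that defines the lineage, did not pass, at 390.1 and 366 FPKM untreated and 378 and 386 FPKM treated. Genes of platelet signalling and of the megakaryocyte skeleton counted 21 falls, 4 rises and 7 that did not pass among 32 (median -0.30). RASGRP2, which activates the small GTPase Rap1, fell from 61.8 and 59.3 to 21.3 and 23.6 FPKM, and TUBB1, the platelet β-tubulin, from 7.06 and 7.78 to 2.97 and 2.84 FPKM. FYN, a Src family kinase, rose from 14 and 15.1 to 31.9 and 37.5 FPKM. Of 17 granule and secreted proteins 8 fell, 5 rose and 4 did not pass, among them SPARC, a matrix protein that rose (0.71), and TIMP3, a protease inhibitor that fell (-0.85).

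Lineage transcription factors counted 15 falls, 9 rises and 10 that did not pass among 34 (median -0.13). LMO2, a bridge between GATA1 and TAL1, was at 56.2 and 66.1 FPKM untreated and 14.5 and 13.6 FPKM treated, and SPI1, the myeloid factor PU.1, at 105 and 115 FPKM untreated and 35.6 and 37.2 FPKM treated. IKZF1, the lymphoid factor Ikaros, was at 12.1 and 12.5 FPKM untreated and 5.19 and 4.76 FPKM treated. Each fell with a wide gap between the groups. MYB, a factor of progenitor growth, fell from 70.9 and 70.8 to 35.8 and 35.7 FPKM and STAT5A from 174 and 174 to 96.8 and 96.7 FPKM. RUNX1 and FLI1 did not pass, with log2 changes of -0.04 and 0.05, and the erythroid factor KLF1 fell by 0.36 on the log2 scale. HOX genes, which keep progenitors immature, counted 7 falls, 1 rise and 9 that did not pass among 17; HOXA11 fell from 6.75 and 6.88 to 2.52 and 2.46 FPKM and HOXB9 from 39.6 and 40.3 to 25.2 and 23.7 FPKM.

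Red cell genes split by function. Of 29 genes of the red cell membrane, 15 fell, 7 rose and 7 did not pass (median -0.24), with 4 rises without untreated replicate 1, untreated replicate 2 or treated replicate 2. EPB42 (protein 4.2) fell from 44.2 and 44.5 to 14.5 and 14.2 FPKM, and AQP1 (a water channel) from 13.4 and 13.4 to 4.27 and 4.02 FPKM. In both the treated libraries lay far below the untreated ones. Among 29 genes of haem synthesis and iron, 14 rose, 7 fell and 8 did not pass (median 0.09). CPOX, an enzyme of haem synthesis, rose from 57.0 and 65.7 to 108 and 119.5 FPKM, and NCOA4, which delivers ferritin to the lysosome, from 31.7 and 34.8 to 52.1 and 51.0 FPKM. SLC40A1, the iron exporter ferroportin, fell from 36.3 and 39.9 to 13.4 and 12.0 FPKM. The ferritin chains made some of the largest gains in absolute level, FTL from 3012 and 2983 to 3942 and 3942 FPKM and FTH1 from 3150.4 and 3150.4 to 3745 and 3836 FPKM. Of 9 globins tested, 4 fell, 2 rose and 3 did not pass. The β-globin HBB, low in this line, fell from 23.4 and 26.8 to 17.0 and 14.4 FPKM (log2 change -0.65), and the embryonic HBZ from 153 and 155 to 105 and 113 FPKM (-0.50). HBQ1 fell by 0.45 on the log2 scale. HBE1, also embryonic, fell from 8990.3 and 8990.3 to 7067 and 7067 FPKM, and the α-globins HBA1 and HBA2, whose reads may be shared, rose by 0.21 and 0.19 on the log2 scale; the HBA2 call was lost without the low-value filter or the variance trend. Equal values arise because quantile normalization gives genes of equal rank equal values, so the spread of the most abundant genes is understated.

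In the MYC network 27.3% of the 11 members tested rose and 27.3% fell, near the 25.7% and 24.7% of all genes. MYC was at 501 and 501 FPKM untreated and 434 and 434 FPKM treated, a small fall (log2 change -0.21 ± 0.034, adjusted p = 0.000868). MXD4, a partner of MAX that opposes MYC and that entered only through its treated libraries, was at 0.751 and 0.801 FPKM untreated and 3.82 and 4.21 FPKM treated (1.5 ± 0.13, adjusted p = 1.84e-05). MLXIP, a glucose-sensing relative, was at 22.4 and 21.5 FPKM untreated and 40.5 and 45.4 FPKM treated. Of the 11 members tested, 3 rose (MXD4, MLXIP and MXD1), 3 fell (MYC, MAX and MLX) and 5 did not pass (MXD3, MXI1, MGA, MNT and MYCL, log2 changes from -0.06 to 0.25, the highest being MXI1, which passed without the variance trend); MYCN stayed below the level tested. Of the 10 that reached 1 FPKM in untreated and treated libraries alike, 2 rose and 3 fell. The MXD1 call was lost without treated replicate 2 (adjusted p = 0.0518) or untreated replicate 2 (0.0734), and that of MAX without treated replicate 2 (0.079).

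Genes of ribosome building, a textbook field of MYC action, fell widely and by modest amounts. Of 80 genes of RNA polymerase I and ribosome assembly, 49 fell, 2 rose and 29 did not pass (median -0.25), and without untreated replicate 2 0 rose. GAR1, a component of the particles that modify ribosomal RNA, fell from 24.1 and 26.5 to 10.8 and 12.6 FPKM, UTP20 of the small-subunit processome from 9.49 and 9.96 to 4.53 and 4.81 FPKM, and RRN3, the initiation factor of RNA polymerase I, from 32.9 and 34.4 to 17.6 and 18.4 FPKM. In each, treated libraries lay well below untreated ones. Mitochondrial ribosomal proteins fell in 43 of 77 cases and rose in 3 (median -0.19), with 28 falls without treated replicate 2; MRPL3 fell from 122 and 127 to 57.0 and 51.2 FPKM. Cytosolic ribosomal proteins, by contrast, counted 24 falls, 12 rises and 42 that did not pass among 78 (median -0.05), with log2 changes between -0.31 and 0.39. These counts moved with the settings: 9 fell and 5 rose without the variance trend, and 6 rose without the low-value filter. Falls were 15 without treated replicate 2 and 11 without untreated replicate 2, and rises were 4 without untreated replicate 1 and 7 without any 1 of the other 3 parental libraries. Aminoacyl-tRNA synthetases fell in 14 of 20 cases and rose in 2 (9 falls without treated replicate 2); IARS fell from 61.0 and 64.0 to 43.5 and 44.2 FPKM and SARS rose from 84.7 and 81.0 to 105 and 104 FPKM. Nucleotide and folate genes fell in 21 of 41 cases and rose in 11 (7 without treated replicate 1). SLC19A1, the folate carrier, fell from 92.0 and 89.6 to 48.2 and 49.9 FPKM, whereas RRM2, the regulated subunit of ribonucleotide reductase, rose from 371 and 394 to 687 and 731 FPKM.

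Chaperones of the endoplasmic reticulum (ER), which fold secreted and surface proteins, fell in 19 of 34 cases, with 4 falls of at least 1 on the log2 scale. HSPA5, the master chaperone BiP, was at 264 and 259 FPKM in untreated and 66.4 and 66.9 FPKM in treated cells, a log2 change of -1.96 ± 0.053 (adjusted p = 6.37e-08). SDF2L1, a partner of BiP, was at 113 and 113 FPKM untreated and 30.6 and 30.7 FPKM treated (-1.85 ± 0.086, adjusted p = 8.1e-07). HSP90B1, the ER form of HSP90, was at 320.3 and 316 FPKM untreated and 135 and 145 FPKM treated (-1.18 ± 0.048, adjusted p = 4.36e-07). In these 3 genes replicates were nearly equal and the treated libraries were at 0.255, 0.272 and 0.441 of the untreated level by the means. Of the other members 3 rose and 12 did not pass (median over all 34 -0.27); 1 rise was left without treated replicate 1 or untreated replicate 1. MANF, a secreted stress protein, fell from 160.4 and 154 to 69.7 and 69.4 FPKM and CALR, calreticulin, from 750.4 and 687 to 439.7 and 438 FPKM. PDIA3, which works beside calreticulin, did not pass (-0.11).

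Promoters of the chaperone with the largest fall and of a further one are shown because they hold the ER stress element, which is bound by ATF6 with NF-Y. The letters searched for it open with a CCAAT, go on with any 9 bases, and close with CCACG. They are again the 250 bases before the RefSeq start site (GRCh38.p14) in the direction of the gene, and capitals mark the CCAAT box, the E-box (CACGTG) and the whole ER stress element on either strand. The element begins with a CCAAT box, so these overlap.
HSPA5 (chr9:125241344-125241593, minus strand): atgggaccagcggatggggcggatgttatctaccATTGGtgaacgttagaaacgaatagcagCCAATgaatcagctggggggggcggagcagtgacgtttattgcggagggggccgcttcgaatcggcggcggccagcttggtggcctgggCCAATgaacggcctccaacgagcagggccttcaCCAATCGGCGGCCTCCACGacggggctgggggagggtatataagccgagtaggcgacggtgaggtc
HSP90B1 (chr12:103930160-103930409, plus strand): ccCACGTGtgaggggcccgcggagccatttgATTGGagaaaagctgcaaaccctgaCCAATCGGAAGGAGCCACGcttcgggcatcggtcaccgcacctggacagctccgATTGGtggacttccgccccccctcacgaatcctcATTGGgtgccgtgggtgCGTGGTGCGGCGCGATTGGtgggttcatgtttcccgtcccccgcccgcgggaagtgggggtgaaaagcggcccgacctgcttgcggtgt
The element was found in 26 of 35116 promoters (0.0740%), in 13 of 9176 promoters of tested genes (0.142%) and in 5 of 31 promoters of the ER chaperone list. In that list 22 of the 31 promoters held CCAAT and 5 held CACGTG, against 32.0% and 6.35% of all. Among promoters of tested genes these shares were 35.9% and 9.285%. Of the 13 tested genes that held the ER stress element, 6 fell (HSPA5, HSP90B1, XBP1, CALR, CRELD2 and SERP1), 0 rose and 7 did not pass. Of all tested genes with a promoter in the table, 24.4% fell. The promoters of SDF2L1 and MANF held CCAAT but not these full letters.

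Other parts of protein quality control moved in different directions. HERPUD1, a stress-induced gene of ER-associated degradation, fell from 55.3 and 55.7 to 15.8 and 11.9 FPKM, yet of 21 genes of that pathway 7 rose, 3 fell and 11 did not pass. VCP, the ATPase that pulls proteins out of the ER, rose from 137 and 136 to 183 and 182 FPKM. Among 11 sensors and factors of the unfolded protein response, 5 fell and 3 rose: XBP1 fell from 83.0 and 89.6 to 45.8 and 51.5 FPKM, DDIT3 (CHOP) fell from 26.4 and 23.5 to 14.2 and 12.7 FPKM, and PPP1R15A, which restores translation, rose from 54.3 and 52.0 to 99.6 and 104 FPKM. Translocon, signal peptidase and glycosylation genes fell in 14 of 34 cases and rose in 3; falls were 9 without treated replicate 1 and 8 without treated replicate 2 or untreated replicate 2, 1 rise was left without treated replicate 1 or untreated replicate 2, and 9 fell with no low-value filter. ATF4 and amino acid response genes went both ways, with 12 falls, 9 rises and 5 that did not pass; CBS fell from 14.2 and 16.3 to 3.84 and 5.69 FPKM and CTH, the next enzyme of cysteine synthesis, rose from 4.91 and 4.13 to 10.8 and 10.3 FPKM. Cytosolic and mitochondrial chaperones counted 24 falls, 2 rises and 11 that did not pass among 37 (median -0.22), with 1 rise without treated replicate 2 or untreated replicate 1. HSPH1 fell from 68.7 and 76.6 to 38.3 and 38.5 FPKM and HSPA8, the constitutive HSC70, from 3512 and 3512 to 2623 and 2558 FPKM, while HSP90AB1 did not pass (0.02). HSPA1A and HSPA1B, near-identical copies, fell by 0.71 and 0.70.

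Degradation in the lysosome showed more rises than falls. Lysosomal genes counted 26 rises, 6 falls and 28 that did not pass among 60 (median 0.18), and of the 57 that reached 1 FPKM in untreated and treated libraries alike 25 rose and 6 fell. NEU1, a sialidase, was at 21.5 and 20.6 FPKM untreated and 66.5 and 67.5 FPKM treated (1.63 ± 0.055, adjusted p = 1.73e-07). SMPD1, acid sphingomyelinase, rose from 4.13 and 4.01 to 10.0 and 10.3 FPKM. CTSS, a cathepsin of antigen-presenting cells, fell from 16.9 and 22.6 to 7.12 and 6.20 FPKM and CLN3, a lysosomal membrane protein, from 22.8 and 21.6 to 10.6 and 10.5 FPKM. In none of the 4 did treated and untreated libraries overlap. Autophagy genes counted 20 rises, 2 falls and 21 that did not pass among 43 (median 0.23), with 1 fall without untreated replicate 2. SQSTM1, the cargo receptor p62, rose from 89.9 and 99.9 to 190.1 and 199.8 FPKM, ATG2A, a lipid transfer protein of the growing autophagosome, from 17.1 and 16.7 to 35.3 and 37.4 FPKM, and the initiating kinase ULK1 from 10.3 and 8.85 to 15.9 and 17.0 FPKM. The proteasome, by contrast, counted 5 rises and 8 falls among 37, with 2 rises without any 1 of the 4 parental libraries or the variance trend; PSMB8, a subunit of the immunoproteasome, fell from 109 and 105 to 56.2 and 56.7 FPKM.

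**Figure D4:**
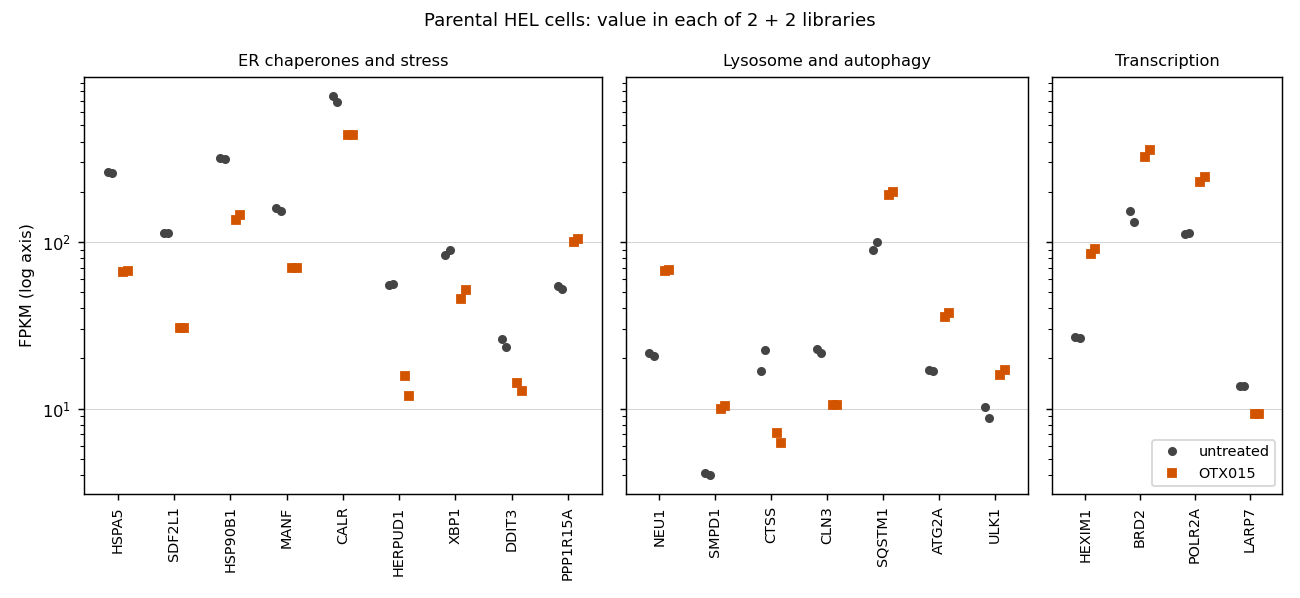
FPKM on a log axis for 20 genes in each parental library, with untreated libraries as dark circles and treated ones as orange squares. All ER genes shown except PPP1R15A fell, HSPA5 to 0.255 of its untreated mean; lysosome and autophagy genes rose except CTSS and CLN3; HEXIM1, BRD2 and POLR2A rose and LARP7 fell.

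Interferon genes fell more often than they rose, although IRF7 rose. Of 43 interferon-stimulated genes, 20 fell, 8 rose and 15 did not pass (median -0.15). RSAD2 (viperin) fell from 15.6 and 16.0 to 6.58 and 5.06 FPKM. Of 18 HLA and antigen presentation genes, 8 fell, 4 rose and 6 did not pass; HLA-B did not pass (0.06), and NLRC5, an activator of class I genes, fell from 62.7 and 55.7 to 30.8 and 34.8 FPKM.

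In the cell cycle the changes were small. DNA replication genes rose in 20 of 51 cases and fell in 9 (median 0.11), and mitosis genes rose in 18 of 46 and fell in 6 (median 0.11). TK1, thymidine kinase, rose from 156 and 151 to 239 and 235 FPKM and RFC5, of the clamp loader, from 28.1 and 26.8 to 43.9 and 44.6 FPKM. UBE2C, a mitotic ubiquitin enzyme, fell from 142 and 142 to 85.4 and 86.6 FPKM, and TPX2 and MCM3 did not pass (0.03 and -0.05). Among G1 cyclins and CDK inhibitors 8 of 26 rose (30.8%) and 7 fell (26.9%), beside 25.7% and 24.7% of all genes. CDKN2C, an inhibitor of CDK4 and CDK6, rose from 60.5 and 62.5 to 93.6 and 94.7 FPKM and CCND2, cyclin D2, fell from 13.3 and 12.3 to 6.79 and 6.42 FPKM. p53 targets rose in 17 of 26 cases and fell in 2 (median 0.52), and of the 22 that reached 1 FPKM in untreated and treated libraries alike 13 rose. The falls were 1 without untreated replicate 1, untreated replicate 2 or treated replicate 1, and 10 rose among those averaging 5 FPKM or more, a set with fewer members. TP53I3, a quinone reductase, rose from 3.76 and 4.02 to 12.4 and 11.7 FPKM and BTG2, a brake on growth, from 22.2 and 22.8 to 49.9 and 53.3 FPKM, while BAX did not pass (0.03). In the BCL2 family and death regulators, 9 of 27 rose and 5 fell, 3 without untreated replicate 2. BCL2L11, the death-promoting BIM, rose from 16.4 and 20.2 to 31.7 and 33.5 FPKM, MCL1, which protects, from 60.8 and 66.5 to 83.1 and 97.2 FPKM, and CFLAR, a block on caspase 8, fell from 7.04 and 8.22 to 4.36 and 3.77 FPKM.

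Most enzymes of chromatin moved modestly. Of 29 acetyltransferases and deacetylases 12 rose, 1 of them by 1.03 on the log2 scale, and 4 fell. Among the rises were SIRT7, SIRT1 and SIRT2 (0.56, 0.54 and 0.50). HDAC7 fell from 93.9 and 94.4 to 52.5 and 58.5 FPKM and KAT2A (GCN5) from 45.6 and 37.8 to 25.5 and 27.0 FPKM. HDAC1 and HDAC2 did not pass (-0.01 and -0.10). Histone methyltransferases and demethylases counted 10 rises (21.7%), 11 falls (23.9%) and 25 that did not pass among 46, with 6 and 7 left without treated replicate 2. These shares were near the 25.7% and 24.7% of all genes. KDM4B, which demethylates lysine 9 of H3, rose from 7.59 and 6.98 to 13.2 and 13.9 FPKM. Zinc finger genes of the ZNF series, the largest list, rose in 58 of 360 cases (16.1%) and fell in 37 (10.3%), and 38 rose without treated replicate 2 or untreated replicate 2. Splicing regulators rose in 19 of 45 cases and fell in 9, with 10 and 8 rises without the same replicates; SRSF6 rose from 64.2 and 64.7 to 102 and 102 FPKM.

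Genes of redox balance and detoxification rose in 21 of 39 cases, fell in 2 and did not pass in 16 (median 0.14), with 1 fall without any 1 of the 4 parental libraries. EPHX1, an epoxide hydrolase, rose from 17.6 and 16.4 to 42.7 and 45.1 FPKM, and the metallothionein MT1X, whose family holds close copies, from 28.0 and 34.2 to 77.7 and 70.7 FPKM. SOD2, the mitochondrial superoxide dismutase, rose from 58.5 and 60.0 to 98.7 and 97.8 FPKM, with the same non-overlapping pattern. In glycolysis and hypoxia genes, 11 of 35 rose (31.4%) and 10 fell (28.6%), beside 25.7% and 24.7% of all genes. SLC2A1, a glucose transporter, rose from 203 and 203 to 300.1 and 312 FPKM and VEGFA fell from 8.27 and 8.17 to 4.85 and 5.12 FPKM. Cholesterol and fatty acid genes counted 10 rises (26.3%) and 12 falls (31.6%) among 38, with 7 and 6 falls without treated replicate 1 or 2. TM7SF2, a sterol reductase, rose from 14.1 and 12.6 to 38.9 and 44.1 FPKM. Tubulins and their complexes rose in 12 of 21 cases and fell in 7 (4 without untreated replicate 2): besides TUBB3, TUBB4B rose from 394 and 384 to 786 and 818 FPKM and TUBB2A from 9.43 and 9.80 to 20.2 and 21.0 FPKM.

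Genes often used as references were not all steady. Of 18, 6 rose, 5 fell and 7 did not pass; 3 rose without untreated replicate 1 or the variance trend, and 3 fell without treated replicate 2. SDHA rose from 75.1 and 79.0 to 119 and 117 FPKM. ACTB fell by 0.33 on the log2 scale, and EEF1A1 did not pass (0.04).

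Gene structure was compared as a feature that the choice of genes did not use. A GENCODE annotation of GRCh38, matched by Ensembl identifier, placed 11227 of 11255 genes. In 5 equal groups by genomic span, the share that fell went from 28.9% of the shortest (0.117 to 10.1 kb) to 21.0% of the longest (88.2 to 2305 kb), and the share that rose ran between 24.8% and 26.6%. The groups also differed in level, with median untreated FPKM from 22.8 in the shortest to 8.52 in the longest; the part of level in the trend was not tested. Genes with a single exon in every transcript rose in 99 of 194 cases (51.0%) and fell in 19. Without the histones, 52 of 142 rose (36.6%) and 19 fell (13.4%), against 25.2% and 24.9% of 11033 genes with more exons.

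The difference between the parental and the P/R response was tested gene by gene. It passed for 9 of 11255 genes (0.08%), so for most genes named above a difference between the lines was not shown; a p that misses the threshold does not show that the lines acted alike. GP6 was at 25.3 and 25.2 FPKM untreated and 6.27 and 5.89 FPKM treated in parental cells, and at 48.6 and 46.9 FPKM untreated and 30.5 and 27.9 FPKM treated in P/R cells. Its fall was larger in parental cells (difference of log2 changes -1.20 ± 0.096, adjusted p = 0.00412). CSF1 was at 15.9 and 15.1 FPKM untreated and 1.61 and 1.92 FPKM treated in parental cells, and 8.28 and 8.29 FPKM untreated and 2.5 and 2.08 FPKM treated in P/R cells, a difference of -1.08 ± 0.15 (adjusted p = 0.0478). MARCKSL1 rose in both lines, in P/R cells from 60.4 and 60.8 to 160.0 and 155 FPKM, and rose more in parental cells (0.76 ± 0.065, adjusted p = 0.00412). HDC, which makes histamine, did not pass in parental cells (425 and 380.4 to 411 and 430.2 FPKM, log2 change 0.06) and fell in P/R cells (263 and 247 to 171 and 175 FPKM). The remaining calls, GP1BA, LAT, NR5A1, TRIM15 and DMTN, were larger falls in parental cells. In all 9 genes the untreated values of the lines did not overlap. GP1BA, for example, was at 31.3 and 29.9 FPKM in untreated parental cells and 67.7 and 70.7 FPKM in untreated P/R cells. The part of these starting levels in the differences was not tested. Of the 8 libraries, leaving out P/R OTX015 replicate 2 gave 8 calls, parental OTX015 replicate 1 gave 5, parental untreated replicate 1 gave 3, and each of the other 5 gave 2.

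**Figure D5:**
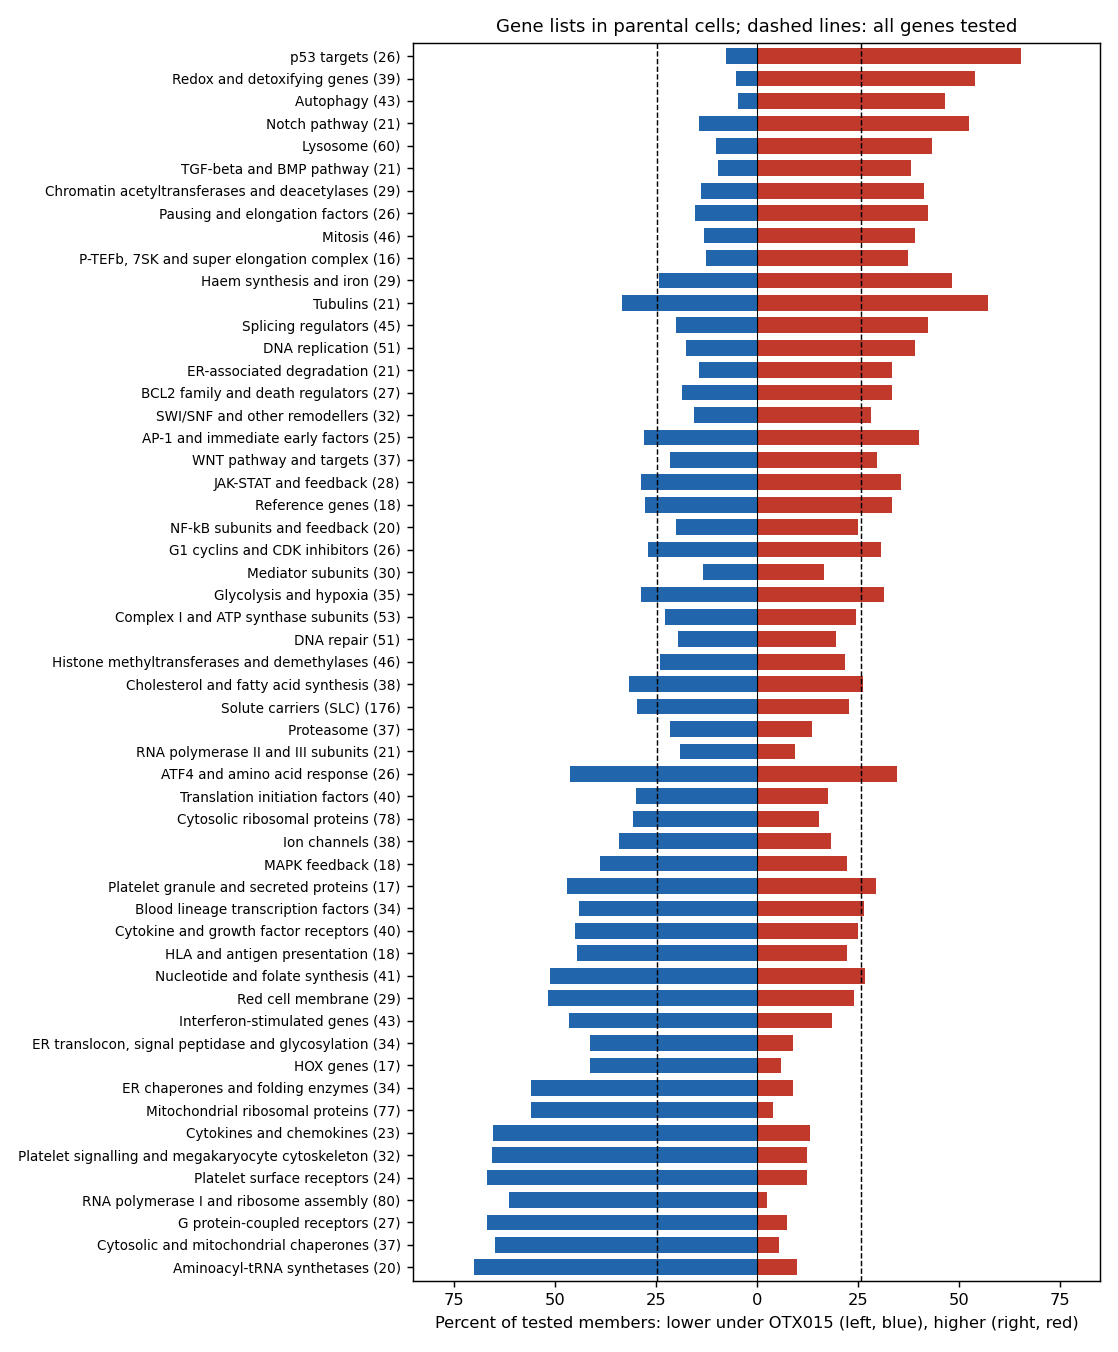
Percent of tested members of each list that fell (left, blue) or rose (right, red) under OTX015 in parental cells, for lists with at least 15 tested members apart from the histones and some broad families; numbers in parentheses are members tested. Dashed lines mark 24.7% lower and 25.7% higher over all genes tested. Aminoacyl-tRNA synthetases, cytosolic and mitochondrial chaperones, G protein-coupled receptors, ribosome assembly, platelet surface receptors and platelet signalling lie at the bottom. At the top are p53 targets, redox and autophagy genes.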

How the data were processed

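RNA of 8 libraries was sequenced; the 4 parental ones carry the comparison. The deposited table names no unit: its values are taken to be FPKM, made by the authors with TopHat2 2.0 and Cufflinks 2.0 on hg19, per the submitters' processing notes, and quantile normalized, as the values show (at 1 FPKM or more, sorted values of the libraries differ by at most 0.136%). The sources used here do not give roles, settings, annotation, poly(A) selection or strand, so genes that overlap on opposite strands may share reads. Quantile normalization hides depth and global change, and log2(FPKM + 1) understates changes of low genes.

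Genes with at least 1 FPKM in at least 2 libraries entered limma 3.58.1 (R 4.3.3; 4 group means over 8 libraries, variance trend, 4 residual and 5.23 prior degrees of freedom). All adjusted p-values for genes are limma's, two-sided, by Benjamini-Hochberg over 11255 genes, with a threshold of 0.05. An exact permutation test of 2 against 2 cannot go below p = 0.333. The replicates are separate treatments of 1 line, so p-values cover that spread only. Replicate numbers were not taken as a pairing, which the labels neither state nor exclude.

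The 73 gene lists and the members were chosen with earlier results of these data known; lists were counted, not tested. Genes were named by rule: the 12 largest rises outside histones, 12 falls and 8 histone rises that passed, did not overlap and reached a mean of 5 FPKM in a parental group; the 6 largest gains and losses in FPKM; genes going from under 1 to at least 5 FPKM or back; up to 5 members per list that passed, by size, and 2 of at least 20 FPKM that did not; all members of the BET and MYC lists; and up to 6 line differences each way. Some genes that the rule names are not reported here. H2AFX, H2AFY, H3F3A, H3F3B and DMTN, and in the closing section the mitochondrial genes, were named after their values were seen. Promoters came from RefSeq (GRCh38.p14; 9176 genes matched by symbol), and exon structure from GENCODE; the hg19 table has no coordinates. Alternative settings were a pseudocount of 0.1 or 5, no low-value filter, a filter at a mean of 5 FPKM, no variance trend, median centring, parental groups alone, a replicate block, a log2 change of 1, and leaving out each library. Python 3.11.15 with pandas 2.3.3 made the counts.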

Additional observations from a re-analysis of the deposited data

Results flagged for a closer look

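The response to OTX015 differed between the lines, by the test of the difference itself, in 9 genes; each value is the parental minus the P/R log2 change. MARCKSL1 rose more in parental cells, by 0.7644. HDC, at 263 and 247 FPKM untreated and 171 and 175 FPKM treated in P/R cells, had a difference of 0.62 and did not pass in parental cells. The other 7 fell in both lines and fell further in parental cells: GP6 with a difference of -1.2004, CSF1 with -1.0787, NR5A1 with -0.6886, GP1BA with -0.6871, LAT with -0.6234, TRIM15 with -0.5613 and DMTN with -0.541. LAT, an adaptor of T cell and platelet receptors, went from 237 and 228 to 69.2 and 68.8 FPKM in parental and from 254 and 254 to 125 and 109.8 FPKM in P/R cells. NR5A1, a nuclear receptor of steroid-making tissues, went from 59.4 and 59.1 to 33.1 and 30.9 FPKM in parental and from 63.8 and 63.6 to 57.4 and 54.9 FPKM in P/R cells. GP1BA went from 67.7 and 70.7 to 51.1 and 48.8 FPKM in P/R cells. DMTN, a red cell membrane skeleton protein, went from 100.3 and 98.9 to 50.9 and 50.6 FPKM in parental and from 128 and 129.9 to 99.1 and 93.5 FPKM in P/R cells, and TRIM15 from 35.5 and 36.3 to 20.7 and 20.1 FPKM and from 44.7 and 45.2 to 38.9 and 37.8 FPKM. The adjusted p-values of limma were 0.00412 for MARCKSL1 and GP6, 0.026 for NR5A1, 0.0424 for DMTN and 0.0478 for the others. The set of calls is small and moves with single libraries and settings.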

How the results depend on the processing

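The counts of parental genes that rose and fell, 2890 and 2777, were 2345 to 2908 and 2241 to 2770 under both pseudocounts, no variance trend, no filter, a filter at a mean of 5 FPKM and the parental groups alone, and 2208 to 2387 and 2152 to 2310 with 1 parental library left out. They were 186 and 300 when a log2 change of at least 1 was asked for. Median centring changed no count and no named call. Of 371 named calls, 16 to 25 were lost without a parental library, 18 without the filter, 7 without the variance trend, 4 with the parental groups alone, 2 with a pseudocount of 0.1, and 0 with a pseudocount of 5 or among the 339 averaging 5 FPKM; none reversed in these settings. The 9 calls of a difference between the lines became 4 with a pseudocount of 0.1, 29 with a pseudocount of 5, 4 with no filter, 3 with no variance trend and 2 at a log2 change of at least 1, and 2 to 8 with a library left out; the cause was not tested. With a replicate block 2846 genes rose, 2719 fell, 3 named calls were lost (KLF10, LYZ and SRGAP2B) and the difference passed for 2 genes. Replicate numbers were not taken as a pairing, because deviations of same-numbered libraries correlated at 0.014 between the parental groups and at -0.12 to 0.10 over all pairs of groups. Depth is unknown, so what counting error limits cannot be stated.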

Other observations

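Genes encoded in mitochondrial DNA were 13 of those tested, and 4 rose, 0 fell and 9 did not pass in limma (median log2 change 0.17). The share that rose was near that of all genes tested, of which 25.7% rose and 24.7% fell. MT-ND4, a subunit of respiratory complex I, rose from 2174 and 2016 to 2684 and 2684 FPKM and MT-CYB, of complex III, from 1876 and 1505 to 2062 and 2092 FPKM. MT-ND4 had no overlap and a log2 change of 0.36 (adjusted p = 0.000149). Its treated values were made equal by quantile normalization, so its spread is understated. MT-ND6 and MT-ND4L rose by 0.32 and 0.26.

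Developmental signalling genes moved one by one. In the Notch list 11 of 21 rose and 3 fell (7 rose without treated replicate 2). HES6 rose from 9.81 and 9.98 to 26.5 and 29.9 FPKM and its relative HES1, a repressor that Notch induces, fell from 24.8 and 26.4 to 11.0 and 11.5 FPKM; NOTCH1 rose from 10.2 and 9.91 to 15.3 and 17.0 FPKM. In the TGF-β and BMP list 8 of 21 rose and 2 fell. BAMBI, a decoy receptor, rose from 15.6 and 18.3 to 32.1 and 37.8 FPKM, LTBP3, which stores TGF-β in the matrix, fell from 14.9 and 13.8 to 7.06 and 6.94 FPKM, and ID1, a BMP target, did not pass (-0.03). Of 37 WNT genes 11 rose (29.7%) and 8 fell (21.6%), near the 25.7% and 24.7% of all genes tested. Besides WNT5B, the ligand WNT10B fell from 5.81 and 5.59 to 1.88 and 1.43 FPKM. LEF1, a nuclear partner of β-catenin, fell from 19.4 and 19.5 to 12.0 and 12.6 FPKM, while the kinase GSK3B rose from 14.4 and 14.3 to 23.2 and 21.7 FPKM.

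Of 176 solute carriers 52 fell (29.5%) and 40 rose (22.7%), near the 24.7% and 25.7% of all genes tested. SLC6A9, a glycine transporter that feeds haem synthesis, fell from 32.4 and 31.7 to 13.3 and 12.4 FPKM, and SLC38A5, an amino acid transporter, from 90.4 and 90.9 to 35.9 and 37.5 FPKM. SLC7A5, the leucine transporter, did not pass (0.12).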
